A study of Mus musculus with 26 samples.

Results

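The genes described here encode the machinery that fills, holds, releases and retrieves synaptic vesicles at the presynaptic terminal. They were taken from the deposited tables by symbol from a fixed list of synaptic vesicle and active zone genes, and all 45 of the 45 listed symbols matched once each among 56941 genes. They were grouped by role into SNARE proteins and their regulators (9 genes), calcium sensors and other C2-domain proteins (7), vesicle membrane and vesicle-bound proteins (13), active zone and presynaptic adhesion proteins (12) and endocytic proteins (4).

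A synaptic vesicle docks at the active zone, a protein scaffold under the presynaptic membrane, where its SNARE protein synaptobrevin pairs with syntaxin and SNAP25. Complexin holds the assembled SNAREs until calcium binds synaptotagmin and the membranes fuse, after which NSF and the SNAPs take the SNAREs apart and dynamin and its partners retrieve the membrane. In motor neurons this machinery serves the release of acetylcholine onto muscle.

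RNA was sequenced from motor neuron spheroids grown from HBG3, mouse embryonic stem cells whose GFP is driven by the promoter of HB9 (Mnx1), a motor neuron transcription factor; the labels give the genotype as heterozygous blastocysts. All groups shared the line, an earlier expansion on feeder cells, differentiation with retinoic acid and a hedgehog agonist (given in the labels as puromorphamine), ciliary and glial derived neurotrophic factors from day 5, and seeding of spheroids of about day 8 on fibrin. The groups were an array of magnets in silicone actuated at 4 Hz for 30 min each day (actuated array, 4 libraries), the same array never actuated (static array, 4), samples labelled high intensity (6) and low intensity (6) in the biochemical experiment, and biochemical controls (6). The design text speaks of medium from optically stimulated or resting muscle under other sample names, and the labels do not tie these to high or low intensity. No label says that replicates came from separate differentiations, so p-values measure the spread between these libraries, which may be technical.

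Tests used 21 libraries with more than 1000000 counts on protein-coding genes (actuated 4, static 3, high intensity 4, low intensity 5, control 5). Their totals were 7269276 to 13162635 counts on the arrays and 1551334 to 3971348 in the biochemical groups. All 45 genes had counts in each of these libraries, the lowest value being 7 counts, and together they made up 0.671% to 1.01% of protein-coding counts. In the 5 shallow libraries, 1 (low intensity replicate 6), 28 (high intensity replicate 4), 42 (control replicate 4), 45 (high intensity replicate 5) and 45 (static array replicate 3) of the genes had counts. Neuronal markers were abundant in the 21 libraries, with a summed level of 5840 to 11893 CPM (counts per 1000000 counts on fitted genes) for 8 pan-neuronal genes. The 7 motor neuron markers summed to 70.5 to 162 CPM. Mnx1 was between 2.38 and 17.8 CPM, Chat, which makes acetylcholine, between 4.81 and 16.2 CPM, and Isl2 was not fitted.

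The promoters of 3 genes are shown because Sncb and Cplx1 are the 2 that passed the test between groups and Syn1, next by p-value, has been a standard neuronal promoter in vectors. Each run is the 250 bases before the annotated start, 5′ to 3′ on the minus strand of GRCm38.p6, from RefSeq, and capitals mark the motifs found. In Sncb (chr13:54766596-54766845) they are a CCAAT box (CCAAT, here on the opposite strand) and a GC box (GGGCGG, also on the opposite strand). In Cplx1 (chr5:108550028-108550277) the capitals are a GC box on the opposite strand. In Syn1 (chrX:20920919-20921168) they are TTCAGCACC, the left part of the RE1 element bound by the neuronal gene repressor REST, and the cAMP response element TGACGTCA.
Sncb: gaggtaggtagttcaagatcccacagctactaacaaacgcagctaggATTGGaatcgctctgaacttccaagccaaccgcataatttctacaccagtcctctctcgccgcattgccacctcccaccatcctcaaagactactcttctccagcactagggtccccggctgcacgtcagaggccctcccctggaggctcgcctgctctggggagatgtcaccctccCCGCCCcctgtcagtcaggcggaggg
Cplx1: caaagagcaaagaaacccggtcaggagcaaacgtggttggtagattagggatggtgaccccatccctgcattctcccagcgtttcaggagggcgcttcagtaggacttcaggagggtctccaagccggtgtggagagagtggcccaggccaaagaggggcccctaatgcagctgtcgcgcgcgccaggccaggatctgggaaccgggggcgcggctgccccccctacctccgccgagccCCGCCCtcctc
Syn1: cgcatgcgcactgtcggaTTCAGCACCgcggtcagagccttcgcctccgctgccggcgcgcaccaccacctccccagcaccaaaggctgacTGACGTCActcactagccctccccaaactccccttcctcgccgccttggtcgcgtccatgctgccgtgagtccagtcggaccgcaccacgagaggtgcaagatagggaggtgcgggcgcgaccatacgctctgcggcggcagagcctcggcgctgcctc

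Promoter windows, 250 bases before to 50 after the start, were found for 36 of the 45 genes. Both strands were searched. The GC box was in 83.3% of these 36 genes and in 38.2% of 27025 genes with a window. The RE1 left part was in Ppfia3, Syn1 and Unc13a (8.33%) and in 0.433% of all genes. The right part, GGACAGC, was in Rph3a and Unc13a (5.56%, against 7.59% of all), and a 15-base core joining both was in 0 of the 36 (0.0407% of all). The NRF1 site was in Bsn (2.78%, against 1.07%). The cAMP response element was in Napa and Syn1 (5.56%, against 2.03% of all). The TATA box TATAAA was in Rab3b and Sv2b (5.56%, against 15.7%), and CCAAT was in 33.3%, against 41.1%. The median GC content of the windows was 61.7% for these genes and 52.7% for all. These matches are descriptions of the letters in the windows only.

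Levels of different genes were compared by the authors' TPM (transcripts per 1000000), which divide by transcript length, over the 21 libraries. Cplx1, complexin 1, was the highest at a median of 877 TPM (379 to 1981), above 99.8% of protein-coding genes, followed by Sncb (beta-synuclein) at 255, the vesicle GTPase Rab3a at 207 and Snap25 at 145. The lowest were Doc2b at 3.64 and Doc2a at 7.25 TPM, both calcium-binding C2-domain proteins. The Cplx1 level rests on a short assigned transcript: its counts per TPM were 0.123 times those of the median gene of the list, and in CPM its median of 379 was below that of Pclo, at 583. Pclo, the very long scaffold piccolo, had 5.17 times the counts per TPM of the median gene.

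**Figure D1:**
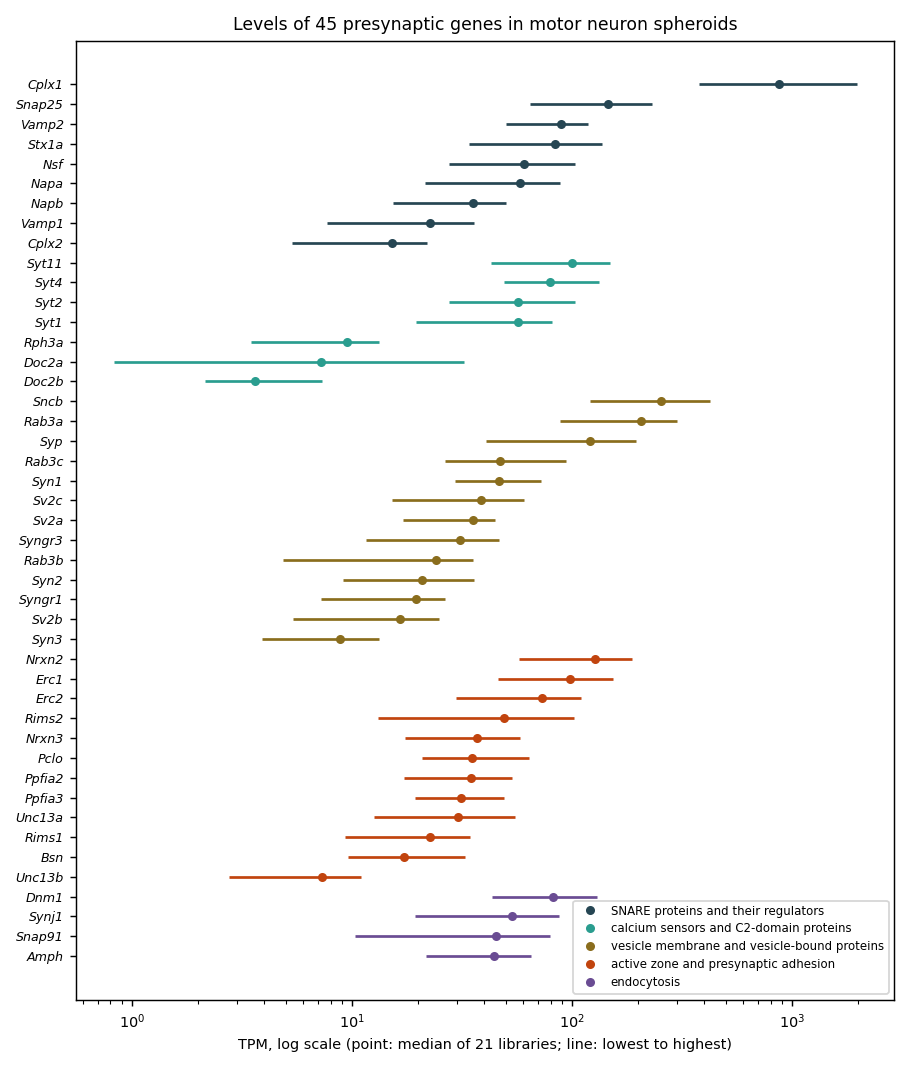
Levels of the 45 genes in TPM on a log axis, grouped by role; each point is the median of 21 libraries and each line runs from the lowest to the highest library. Cplx1 stands highest at 877 TPM, and Doc2b lowest at 3.64 TPM.

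Within the roles, SNARE proteins ran from Cplx1 down to Cplx2 (15.3 TPM), with the plasma membrane SNAREs Snap25 and Stx1a (84.0) and the vesicle SNARE Vamp2 (88.8) between. Calcium sensors ran from Syt11 (99.9), a synaptotagmin that does not bind calcium, to Doc2b. Syt1 and Syt2, the fast calcium sensors, were close to each other at 56.8 and 57.1 TPM. Vesicle proteins ran from Sncb to Syn3 (8.80), active zone proteins from the adhesion molecule Nrxn2 (128) to the priming factor Unc13b (7.34), and endocytic proteins from Dnm1 (dynamin 1, 82.0) to Amph (amphiphysin, 44.1).

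The order of paralogs by TPM was stable in most families, but it rests on the assigned transcript lengths. In CPM, Rab3c was above Rab3a (357 against 164 in control replicate 1) and Napb above Napa (134 against 65.9 in the same library). In all 21 libraries the highest member by TPM was Cplx1 over Cplx2 (97.6% to 99.0% of their sum), Vamp2 over Vamp1 (72.9% to 87.9%), Syn1 over Syn2 and Syn3 (57.0% to 73.2%), Rab3a over Rab3c and Rab3b (64.7% to 78.7%), Unc13a over Unc13b (72.1% to 93.8%), Rims2 over Rims1 (57.0% to 82.5%), Erc1 over Erc2 (51.2% to 71.6%), Nrxn2 over Nrxn3 (65.3% to 82.0%) and Napa over Napb (51.4% to 67.0%). The order varied elsewhere, and for Doc2a the counts per TPM ranged from 0.0931 to 0.733 times those of the median gene. Syt11 was above Syt4, Syt2 and Syt1 in 19 of 21 libraries, Syngr3 above Syngr1 in 19, Doc2a above Doc2b in 16, Sv2c above Sv2a and Sv2b in 15 and Ppfia2 above Ppfia3 in 15. The ranges of Ppfia2 (17.2 to 53.3 TPM) and Ppfia3 (19.4 to 49.3) overlapped over most of their length.

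Values between groups are CPM scaled by the trimmed mean of M values (TMM), and folds are log2 folds from edgeR's quasi-likelihood fit, called at a Benjamini-Hochberg adjusted p under 0.05 over 14730 genes. TPM were not used for this, because 2 signal recognition particle RNAs, Rn7s1 and Rn7s2, took 27.8% to 61.0% of all TPM in the controls and 11.9% to 32.7% in both intensity groups. In TPM + 1 the median of all genes was 0.53 higher in log2 at high intensity and 0.64 higher at low intensity than in the controls. With TPM rescaled without both RNAs these medians were 0.23 and 0.22. In these bulk libraries, fewer cells of a type and less RNA per cell cannot be told apart.

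High intensity was compared with the controls. Most of the vesicle and active zone genes were lower in the high-intensity libraries, and 2 passed the test: Sncb fell by 39.4% and Cplx1 fell by 34.5%. The log2 fold change was below 0 for 43 of the 45 genes in edgeR and DESeq2 on counts (49.7% of all genes in edgeR) but for 4 on TPM + 1 (9.16% of all genes). Measured from the median of all genes in each fit, it was below that median for 43 genes on counts and for 40 on TPM + 1. The median fold of the 45 genes was -0.27 in log2, and that of all genes 0.00. An unadjusted p under 0.05 with a negative fold was found for 20 of the 45 genes and for 7.28% of all genes.

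The called genes were 2 of 45, and 0.462% of all genes were called in either direction (0.156% as lower). Beta-synuclein is a vesicle-associated neuronal protein of the synuclein family. Its level was 171, 169, 162 and 208 CPM at high intensity and 256, 353, 296, 287 and 273 CPM in the controls. All 4 high-intensity libraries were below all 5 controls. The Sncb log2 fold change was -0.72 (SE 0.14, 95% interval -1.01 to -0.44, edgeR adjusted p = 0.0357).

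Complexin 1 binds the assembled SNARE complex and both clamps and promotes fusion. Cplx1 measured 244, 303, 201 and 295 CPM at high intensity and 372, 446, 400, 379 and 394 CPM in the controls, again without overlap. Its log2 fold change was -0.61 (SE 0.14, 95% interval -0.89 to -0.33, edgeR adjusted p = 0.0435). Of the 45 genes, 4 had all high-intensity libraries below all controls (Sncb, Cplx1, Doc2b and the priming factor Unc13a), and 1.49% of all genes did so.

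Both calls depended on the libraries fitted. With all 26 libraries, 0 genes of the list were called (0.0402% of all genes). The folds were then -0.66 for Sncb (edgeR adjusted p = 0.726) and -0.72 for Cplx1 (edgeR adjusted p = 0.75). With the 2 groups alone in the fit, 0 of the 45 were called, where 17 of all genes were. Without high intensity replicate 1, 2 or 3, or control replicate 2, 3 or 5, 0 were called. Without high intensity replicate 6, 4 were. The share of all genes called in each of these refits without 1 library is not given here. DESeq2 called 3 (3.17% of all genes), adding Syn1 (adjusted p = 0.0462), and on TPM + 1 limma called 0 of the 45, where 15.7% of all genes were called higher.

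**Figure D2:**
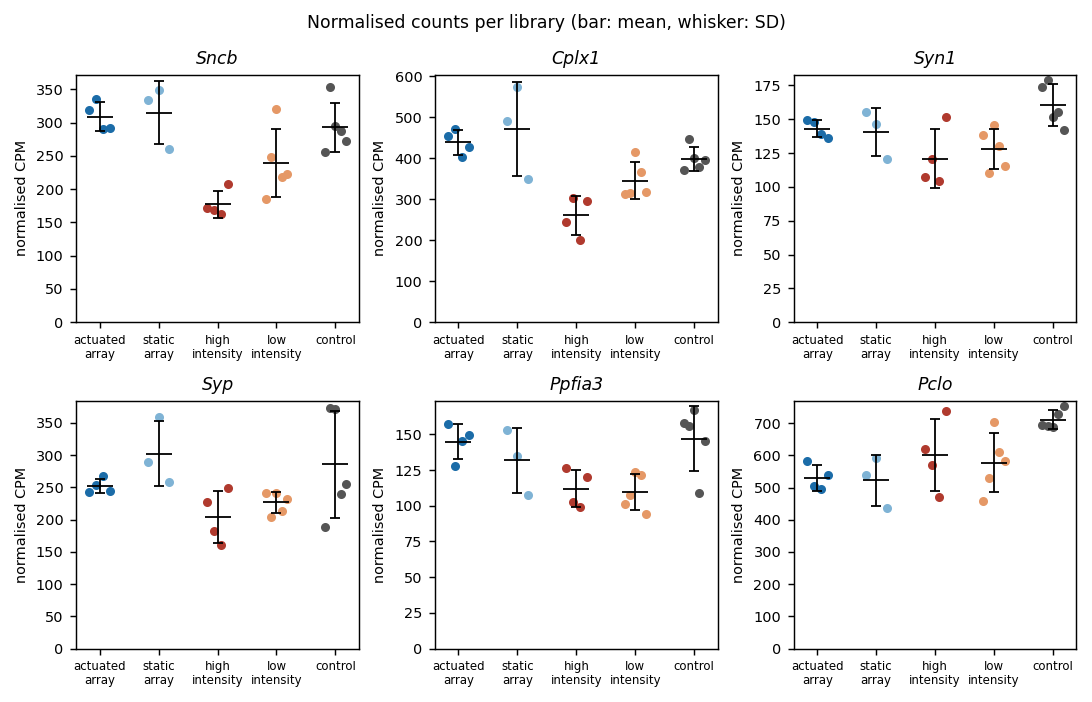
TMM-normalised CPM of 6 genes in each of the 21 libraries, by group, from an axis at 0; bars are means and whiskers SD. The high-intensity libraries of Sncb (162 to 208 CPM) lie below every control (256 to 353 CPM) on this count scale; in TPM + 1 the fold is -0.07.

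By role, the SNARE group had 8 of 9 genes below 0 on the count scale (median -0.25), with Cplx1 the 1 called. Vamp2, the main vesicle SNARE, had a fold of -0.37 (adjusted p = 0.134), and Stx1a, its partner in the plasma membrane, of -0.40 (adjusted p = 0.248). Vamp1, the paralog of Vamp2 prominent in spinal neurons, was the member above 0 at 0.26 (adjusted p = 0.51). Snap25 stood at -0.25 and the SNARE-disassembling ATPase Nsf at -0.14.

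Among the calcium sensors, 7 of 7 were below 0 on the count scale (median -0.27) and 0 were called. Syt11, the most abundant, was 317, 368, 291 and 418 CPM at high intensity and 367, 328, 441, 380 and 403 CPM in the controls. These ranges overlapped, and its fold was -0.14 (edgeR adjusted p = 0.595). The folds of Syt1 and Syt2 were -0.35 and -0.31, and that of Doc2b, which binds calcium with high affinity, was -0.66 (95% interval -1.14 to -0.18, adjusted p = 0.16).

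Among vesicle proteins, 12 of 13 were below 0 on the count scale (median -0.25), with Sncb the 1 called. Syn1, synapsin 1, which tethers vesicles in the reserve pool, had a fold of -0.41 (adjusted p = 0.11), and Syp, synaptophysin, an abundant vesicle membrane protein, of -0.48 (adjusted p = 0.146). Rab3a stood at -0.30. Rab3b, a minor paralog, was above 0 at 0.20.

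The active zone genes were below 0 in 12 of 12 cases on the count scale (median -0.30) and 0 were called. Nrxn2, a neurexin that adheres to postsynaptic partners, measured 223, 245, 172 and 260 CPM at high intensity and 279, 271, 262, 242 and 300 CPM in the controls. Replicates 2 and 6 of high intensity reached into the control range, and the fold was -0.27 (edgeR adjusted p = 0.244). Ppfia3 and Ppfia2, liprin-alpha scaffolds, stood at -0.39 and -0.42, and the large scaffolds Pclo and Bsn at -0.24 and -0.17.

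All 4 endocytic genes were below 0 on the count scale (median -0.28), and 0 were called. Dnm1, which pinches vesicles off the membrane, was 188, 177, 151 and 221 CPM at high intensity and 234, 275, 205, 206 and 266 CPM in the controls. Replicate 6 overlapped the controls, and the fold was -0.36 (edgeR adjusted p = 0.152). Amph, which recruits dynamin, stood at -0.40 (adjusted p = 0.133).

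On TPM + 1, where the median of all genes was 0.53, the medians of the roles were 0.40 for SNARE genes, 0.29 for calcium sensors, 0.33 for vesicle proteins, 0.33 for active zone genes and 0.32 for endocytic genes, with 0 called in each. All 5 lay above 0 and below that median.

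**Figure D3:**
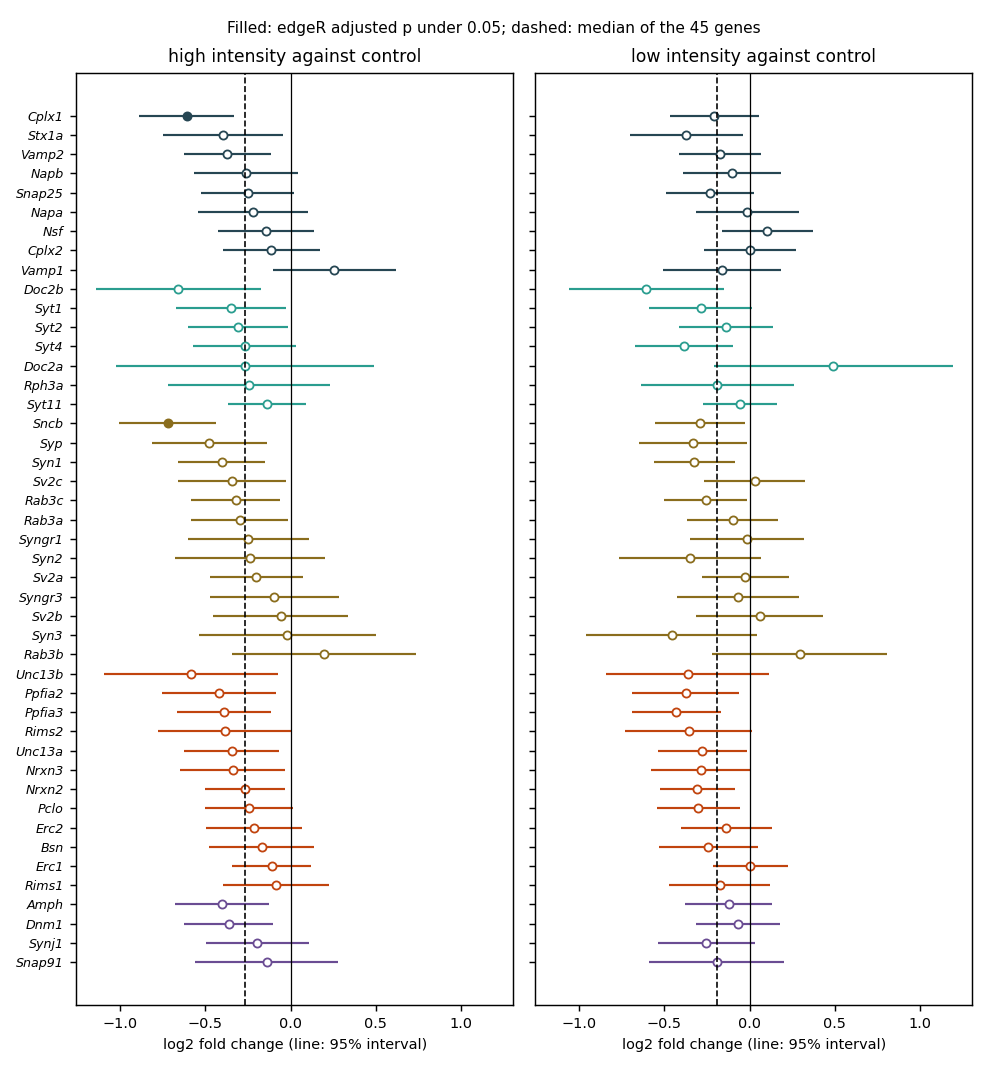
Log2 fold change on the count scale with 95% interval for the 45 genes at high and low intensity against control, coloured by role; filled points passed the edgeR test and dashed lines are the medians of the list (-0.27 and -0.19). Of the points, 43 lie below 0 at high and 38 at low intensity; on TPM + 1 that is 4 and 0.

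The libraries of a group were not alike. The median log2 difference of the 45 genes from the control mean was -0.36, -0.17, -0.58 and -0.02 in high intensity replicates 1, 2, 3 and 6, and between -0.08 and 0.07 in the controls. Replicate 3 had 42 of the 45 genes below the control mean and replicate 6 had 28. Without replicate 3, 40 of the 45 folds were below 0, and the median of the list ranged from -0.37 to -0.21 as each library of these 2 groups was left out.

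Markers of cell types were compared in the same libraries, and not all differed. Astrocyte and radial glia markers summed to 2540 to 2883 CPM at high intensity and 2347 to 3187 CPM in the controls. Interneuron markers summed to 190 to 274 CPM and 213 to 332 CPM, also with overlap. The 8 pan-neuronal markers had a median fold of -0.31 on the count scale, beside -0.27 for the 45 presynaptic genes. Of these markers 8 of 8 were below 0, with 0 called by edgeR and 1, lower, by DESeq2. On TPM + 1 the pan-neuronal median was 0.23, with 2 of 8 below 0, beside 0.34 for the presynaptic genes and 0.53 for all genes. The summed level of the pan-neuronal markers was 7572, 7619, 5840 and 9048 CPM in high intensity replicates 1, 2, 3 and 6, and 8909 to 10250 CPM in the controls. Markers of cycling progenitors summed to 477 to 1327 CPM at high intensity, highest in replicate 3, and to 317 to 389 CPM in the controls, without overlap; of these 5 genes, Mki67 (fold 1.31, edgeR adjusted p = 0.0364) and Top2a (1.30, adjusted p = 0.0448) rose, as they did on TPM + 1 (1.74 and 1.42). The 6 fibroblast markers summed to 810 to 2345 CPM, highest in replicate 2, against 325 to 890 CPM in the controls. Their folds were above 0 for 6 of 6 on counts and on TPM + 1, with 0 called on counts and 1 on TPM + 1. The 7 skeletal muscle markers summed to 16.3 to 172 CPM at high intensity and 8.46 to 66.9 CPM in the controls, with overlap. Of these, 3 could be fitted, and 0 were called on counts and 1, higher, on TPM + 1. Myod1, the myoblast factor, was at 0 in every control and at most 4.09 CPM at high intensity. The 6 fitted motor neuron markers had a median fold of -0.27 on counts and 0.13 on TPM + 1, with 0 called in both. The part of these markers in the lower presynaptic values was not tested.

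**Figure D4:**
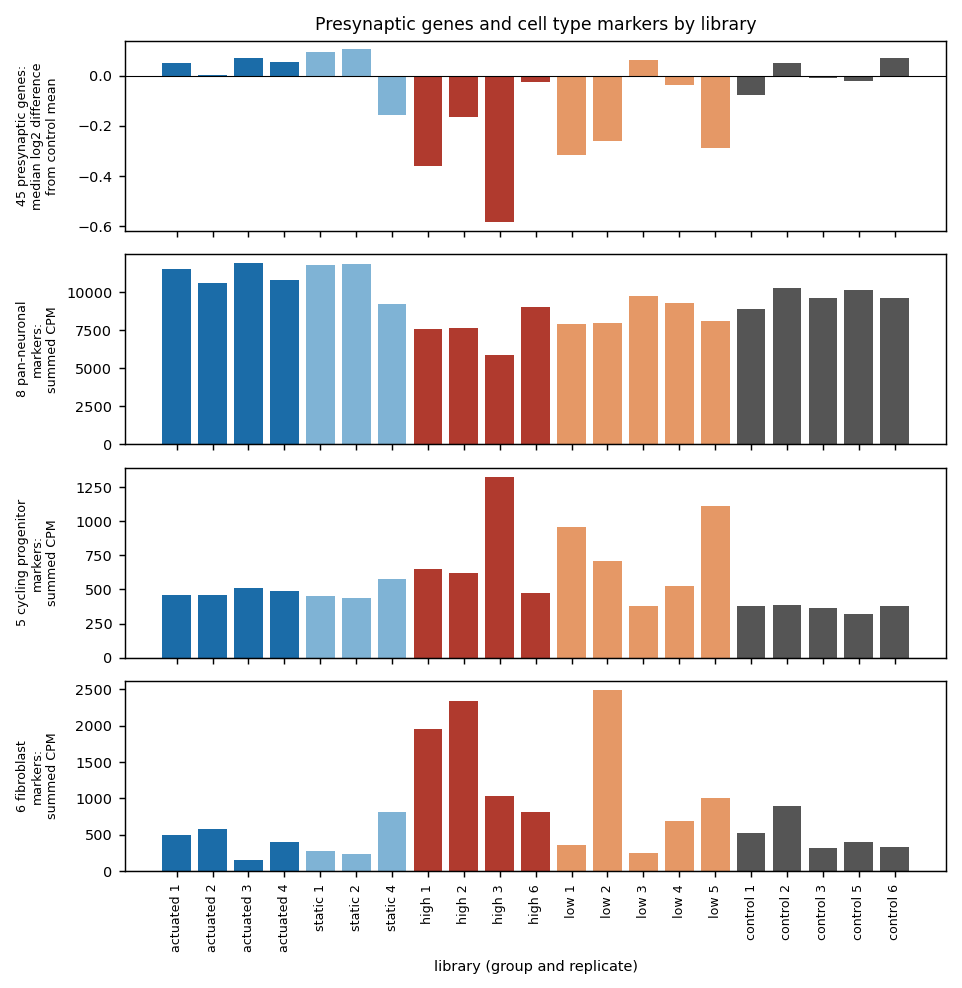
For each of the 21 libraries, the median log2 difference of the 45 genes from the control mean and the summed CPM of 8 pan-neuronal, 5 cycling progenitor and 6 fibroblast markers, on the count scale. High intensity replicate 3 has the lowest presynaptic median (-0.58), the lowest pan-neuronal sum (5840 CPM) and the highest cycling progenitor sum (1327 CPM). Its fibroblast sum (1028 CPM) is below those of high intensity replicates 1 (1960 CPM) and 2 (2345 CPM), and low intensity replicate 2 has the highest (2490 CPM).

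Low intensity was compared with the same controls, so the 2 comparisons share control libraries. The presynaptic genes were again mostly lower on the count scale, with 38 of 45 folds below 0, against 50.9% of all genes, and a median of -0.19; on TPM + 1 it was 0 of 45, against 8.51% of all genes, while 29 lay below the median of all genes. None passed the test: 0 of 45 were called by edgeR, while 0.597% of all genes were. DESeq2 called 1, Ppfia3 (adjusted p = 0.0352), and 3.26% of the 14437 genes to which it gave an adjusted p. On TPM + 1 limma called 13 of the 45, all higher, where 36.8% of all genes were called higher. An unadjusted p under 0.05 with a negative fold was found for 12 of the 45 and 6.61% of all genes.

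Liprin-alpha 3, which links active zone scaffolds, had the smallest p. Ppfia3 was 101, 108, 124, 121 and 94.2 CPM at low intensity and 158, 156, 167, 109 and 145 CPM in the controls. Control replicate 5 was the library inside the low-intensity range, and the fold was -0.43 (SE 0.13, edgeR adjusted p = 0.0959). Nrxn2 was 215, 213, 248, 228 and 193 CPM, against the control values given above, with a fold of -0.31 (adjusted p = 0.16).

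Syn1 was 139, 110, 146, 130 and 115 CPM at low intensity and 174, 179, 152, 155 and 142 CPM in the controls. Only low intensity replicate 3 reached into the control range, and the fold was -0.32 (edgeR adjusted p = 0.166). Sncb was 185, 248, 321, 218 and 223 CPM (fold -0.29, adjusted p = 0.266), overlapping the controls. Doc2b, at 10.6 to 15.5 CPM, was the 1 gene of the 45 with every low-intensity library below every control (16.8 to 24.1 CPM), and 0.971% of all genes were so; its fold was -0.61 (adjusted p = 0.172).

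By role, on the count scale, folds at low intensity were below 0 for 7 of 9 SNARE genes (median -0.16), 6 of 7 calcium sensors (-0.19), 10 of 13 vesicle proteins (-0.10), 11 of 12 active zone genes (-0.29) and 4 of 4 endocytic genes (-0.16), with 0 called in each. The library medians of the 45 genes were -0.31, -0.26, 0.06, -0.04 and -0.29 in replicates 1 to 5. Replicates 3 and 4, the libraries nearest the controls, had pan-neuronal sums of 9748 and 9280 CPM and cycling progenitor sums of 382 and 529 CPM; in replicates 1, 2 and 5 these sums were 7867 to 8100 CPM and 706 to 1110 CPM. Elavl4, a pan-neuronal RNA-binding protein, fell on counts (fold -0.59, edgeR adjusted p = 0.037) and stood at -0.05 on TPM + 1. The 8 pan-neuronal markers together had a median of -0.22 by DESeq2 on counts, with 7 below 0 and 1 called lower. On TPM + 1 their median was 0.51, with 7 above 0 and 2 called higher. The progenitor genes Top2a (1.28, edgeR adjusted p = 0.0372) and Nes (1.43, edgeR adjusted p = 0.0443) rose. The part of these markers in the presynaptic values was not tested.

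**Figure D5:**
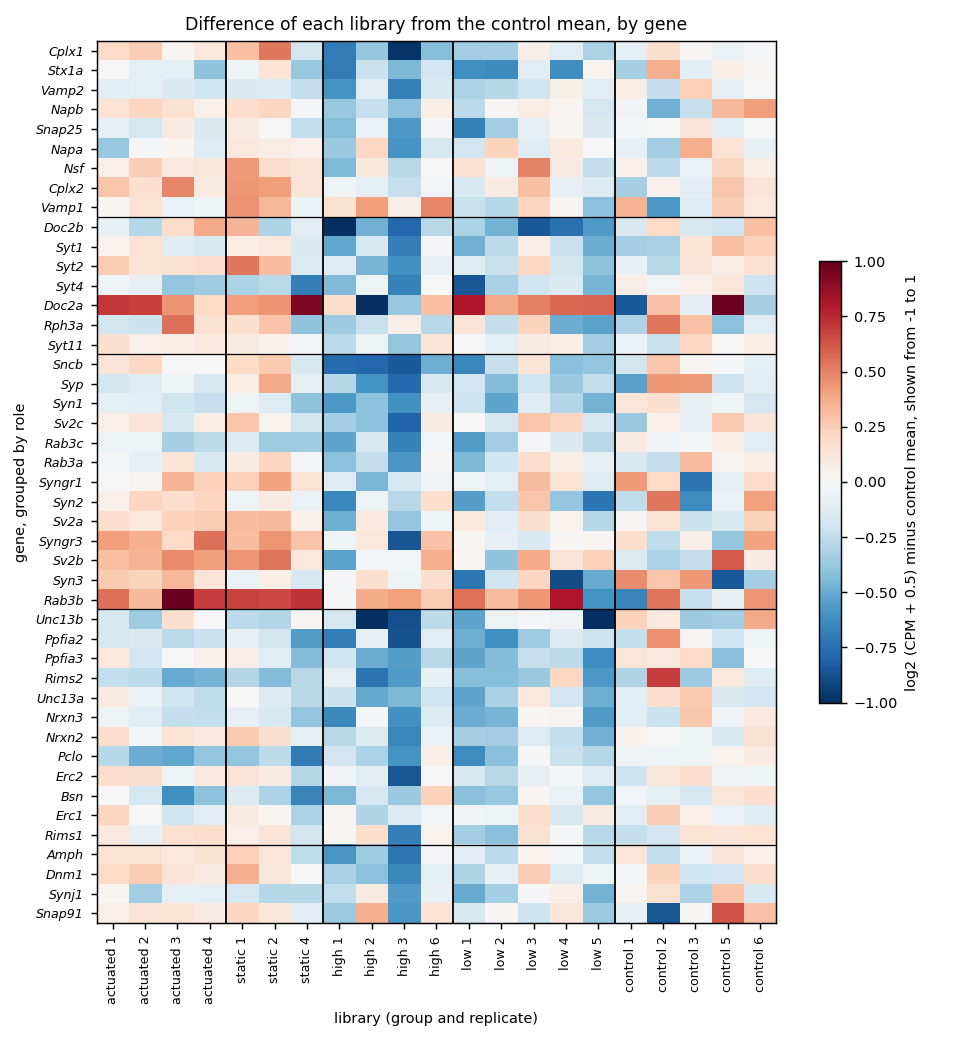
Difference of each gene in each of the 21 libraries from the control mean, in log2 of CPM + 0.5 (count scale, colours limited to -1 to 1), with genes grouped by role. The bluest column is high intensity replicate 3 (median -0.58), while high intensity replicate 6 (-0.02) and low intensity replicate 3 (0.06) are near the controls.

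High and low intensity were also compared directly. Of the 45 genes, 34 were lower at high intensity on the count scale (39 on TPM + 1), where 48.5% of all genes were lower (61.8% on TPM + 1), with a median of -0.08. DESeq2 called none of the 45, and it called 0.876% of the 5592 genes to which it gave an adjusted p. Doc2a, Doc2b, Rph3a, Syn3, Rab3b and Unc13b were not among those 5592, so DESeq2 could not call them. By edgeR 0 of 45 were called (0% of all genes), and 7 had an unadjusted p under 0.05 (7.68% of all genes). Sncb had the smallest p, with a fold of -0.43 (95% interval -0.71 to -0.15, adjusted p = 0.469); high intensity replicate 6, at 208 CPM, lay above low intensity replicate 1, at 185 CPM.

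Cplx1 was 312, 314, 414, 367 and 318 CPM at low intensity, all above the 4 high-intensity libraries, with a fold of -0.40 (95% interval -0.68 to -0.13, edgeR adjusted p = 0.469). It and Doc2a were the genes of the list without overlap in this direction, which 1.35% of all genes showed. Sv2c, a vesicle glycoprotein that is a receptor of botulinum toxin A, was 163, 156, 119 and 221 CPM at high and 207, 185, 251, 241 and 186 CPM at low intensity, with overlap (fold -0.37, edgeR adjusted p = 0.596). A difference between the intensities was thus not shown for any of the genes.

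Actuation was compared with the static array. The presynaptic genes had folds near 0: 27 were above 0 and 18 below on the count scale, against 50.1% of all genes below (2 of 45 on TPM + 1, against 29% of all genes), with a median of 0.02 and a range from -0.26 (Syp) to 0.29 (Syn3). None was called by edgeR (0 of 45; 0% of all genes) or by DESeq2 (0.034% of all genes), and 0 had an unadjusted p under 0.05 (0.38% of all genes). The 95% intervals of the 45 folds reached from -0.88 to 0.85 at the widest, so the test does not show that the groups are alike.

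Syp had the smallest p, at 243, 253, 268 and 245 CPM on the actuated and 290, 358 and 259 CPM on the static array. Actuated replicate 3 lay above static replicate 4, and the fold was -0.26 (95% interval -0.64 to 0.11, edgeR adjusted p = 1). Vamp1 was 47.5, 51.6, 44.6 and 45.3 CPM, against 64.1, 59.0 and 44.6 CPM, with overlap, and its fold was -0.24 (95% interval -0.63 to 0.15, adjusted p = 1). Syt4, a synaptotagmin of dense-core vesicles, was 332, 321, 258 and 266 CPM on the actuated and 274, 282 and 212 CPM on the static array. Its fold was 0.20 (95% interval -0.14 to 0.54, adjusted p = 1).

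The most abundant gene of each role overlapped between the arrays. Cplx1 was 453, 471, 402 and 426 CPM when actuated and 491, 573 and 349 CPM when static. Sncb was 319, 335, 290 and 291 CPM, against 335, 349 and 261 CPM. For both, the static libraries enclosed all 4 actuated ones.

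Syt11 lay between 396 and 426 CPM on the actuated and between 375 and 406 CPM on the static array. The ranges were 268 to 305 and 254 to 323 CPM for Nrxn2, and 251 to 281 and 235 to 301 CPM for Dnm1. Static replicate 4 was the lowest of the 3 for each of these genes, and its median difference from the control mean over the list was -0.16, where static replicates 1 and 2 stood at 0.09 and 0.10. Its pan-neuronal sum was 9245 CPM, against 11751 and 11819 CPM. Syn3 was the gene without overlap upward (2.1% of all genes) and Napa the one downward (2.23%).

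The static array and the biochemical controls differ in platform and in depth, and which of these goes with a difference cannot be told apart. Of the 45 folds, 22 were below 0 on the count scale, against 50.3% of all genes (0 of 45 on TPM + 1, against 14%), and the median was 0.00. By edgeR 0 of the 45 were called, against 0.713% of all genes; DESeq2 called 1 (2.59% of all genes), Pclo (adjusted p = 0.022), and on TPM + 1 limma called 2, both higher (7.38% of all genes). The roles stood apart in their counts: 11 of 12 active zone genes were below 0 (median -0.19), whereas 9 of 13 vesicle genes (0.08) and 6 of 9 SNARE genes (0.09) were above it, again on the count scale. This difference between roles was not tested.

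Markers of other cells also differed between these groups. The 4 oligodendrocyte markers summed to 135 to 403 CPM on the static array and to 44.5 to 102 CPM in the controls, without overlap. Of these, 3 could be fitted, with a median fold of 1.89 on counts and 2.10 on TPM + 1; edgeR called 0, DESeq2 1 and limma on TPM + 1 all 3. The 7 astrocyte and radial glia markers summed to 3585 to 4334 CPM, against 2347 to 3187 CPM, also without overlap, with 7 of 7 folds above 0 on counts and on TPM + 1 (medians 0.48 and 1.14) and 0, 1 and 4 called by the same tools. The 7 motor neuron markers summed to 73.7 to 89.1 CPM, against 105 to 162 CPM, and of the 6 fitted Slc5a7, the choline transporter, fell (fold -1.88, edgeR adjusted p = 0.00392; -0.80 on TPM + 1, limma adjusted p = 0.208). Their median was -0.59 on counts and 0.02 on TPM + 1. The 8 pan-neuronal markers had 4 folds above 0 and 4 below on counts (median 0.03), with 0 called by edgeR and 1, lower, by DESeq2. On TPM + 1, 7 of the 8 were above 0 (median 0.49), and limma called 1, higher. The part of these markers in the presynaptic values was not tested.

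Pclo was 541, 592 and 436 CPM on the static array and 694, 692, 688, 730 and 754 CPM in the controls, without overlap, with a fold of -0.44 (SE 0.14, edgeR adjusted p = 0.139). The actuated libraries were also low, at 583, 505, 495 and 540 CPM. Syt4 was 356, 334, 353, 370 and 294 CPM in the controls, all above the static values (fold -0.41, edgeR adjusted p = 0.255). Rab3b was 27.1, 26.9 and 28.0 CPM on the static array and 10.4, 24.5, 14.2, 15.9 and 22.9 CPM in the controls, all lower, with a fold of 0.63 (adjusted p = 0.313).

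With Rab3c, these made 3 genes without overlap downward (3.62% of all genes) and 1 upward (4.52%). Across the 45 genes, the static fold went with counts per TPM, a measure of assigned length, at Spearman's rho -0.37 (Pearson's r -0.45), longer genes being lower on the static array. The same measure gave 0.10 (Pearson's r 0.13) at high intensity and 0.42 (Pearson's r 0.37) for actuation. These describe genes of the same libraries, which are not independent replicates, and the comparisons share libraries.

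The fold of actuation over the static array was set against that of high intensity over control in 1 term of the model. It was above 0 for 43 of 45 genes on the count scale (on TPM + 1, 34 of 45 were below 0, against 84.2% of all genes), against 49% of all genes, with a median of 0.31. None was called by edgeR (0 of 45; 0% of all genes) or by DESeq2 (0.034%); 9 had an unadjusted p under 0.05 with a positive value, against 2.96% of all genes. Sncb stood at 0.69 (95% interval 0.27 to 1.12, adjusted p = 0.631), Ppfia3 at 0.53 (0.12 to 0.94, adjusted p = 0.663) and Cplx1 at 0.51 (0.09 to 0.92, adjusted p = 0.687). That these genes respond otherwise to high intensity than to actuation was therefore not shown after adjustment.

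Other genes of the pathway, 65 in number, include further SNARE partners, transporters that fill vesicles, coat proteins and calcium channels; 59 could be fitted. At high intensity 45 were below 0 and 14 above on the count scale, with a median of -0.17, and 16 had an unadjusted p under 0.05, all with negative folds, against 7.28% of all genes. On counts, 1 of the 59 was called by edgeR and 6 by DESeq2, all lower. On TPM + 1, 4 of the 59 were called, all higher, where 15.7% of all genes were called higher, and without Rn7s1 and Rn7s2 in the TPM 0 were called. At low intensity 37 were below 0 (median -0.15) and 0 were called by edgeR, with 10 at an unadjusted p under 0.05, 9 of them lower (6.61% of all genes); on TPM + 1, 23 were called, all higher, a share close to the 36.8% of all genes called higher. In the static, actuation and direct intensity comparisons 0 were called by edgeR, with 8, 1 and 5 at an unadjusted p under 0.05, against 12.6%, 0.38% and 7.68% of all genes. DESeq2 called 2 on the static array (1 higher, 1 lower), 1 lower between the intensities, 1 lower at low intensity and 0 for actuation. The shares it called, of the genes to which it gave an adjusted p, were 2.59%, 0.876% (of 5592 genes only), 3.26% and 0.034%. On TPM + 1 limma called 6 on the static array, all higher, where 7.38% of all genes were called higher. The 6 not fitted were Vamp7, Cplx3, Cplx4, Slc17a7, Slc17a8 and Slc18a2.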

How the data were processed

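The authors deposited a table of expected counts, written as whole numbers without scaling for depth, and a table of TPM that sum to 1000000 in each library. The submitters' processing notes name BWA 0.7.12-r1039, bedtools 2.25.0, STAR and Salmon and the builds mm10, hg19 and GRCm39; which of these made the deposited values, and whether counting used the strand, is not given in the sources used here. Per the labels' protocols, a low-input kit took 4 ng of total RNA (full volume for 8 samples, not identified), rRNA fragments were cleaved, PCR ran 5 and then 15 cycles, and reads were paired and of 50 bases. The deposited totals of the 26 libraries differed widely, and 5 with fewer than 1000000 protein-coding counts entered only in the alternative with all 26.

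The rounded counts were tested with edgeR 4.0.16 (R 4.3.3): filterByExpr, TMM scaling, 1 coefficient for each of 5 groups, the quasi-likelihood F-test and Benjamini-Hochberg adjustment over all 14730 genes. DESeq2 1.42.0, limma 3.58.1 on log2(TPM + 1) and on log2(TPM + 0.1), other filters and fits, and leaving out each library were alternatives; the scripts were tested on simulated counts. A log2 TPM fold understates low genes. The genes, gene lists and library minimum were chosen with earlier results of these data known. Values are given for every gene with an adjusted p under 0.05, or else for the 3 of smallest p, and for the most abundant gene of each role; other genes serve as examples and were chosen after their values were seen. The gene that edgeR called among the further presynaptic genes at high intensity is not reported here. Replicate libraries differed beyond sampling noise (chi-square per degree of freedom 4.74 or more in 57 pairs within groups). Few libraries and PCR without molecular identifiers limit the precision, and intervals cover the spread between libraries only.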

Additional observations from a re-analysis of the deposited data

Results flagged for a closer look

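In 180 pairs of gene and group with 4 or 5 libraries, 1 library lay far from the others in 2, where chance at 1 in 20 would give about 9. Erc2, an active zone scaffold, was 115 CPM in high intensity replicate 3, against 194 to 209 CPM in the other 3 libraries of the group. Rims2, a Rab3-binding organiser of the active zone, was 138 CPM in low intensity replicate 4, against 80.3 to 92.3 CPM in the other 4.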

How the results depend on the processing

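The 2 genes called at high intensity became 0 with all 26 libraries (edgeR or limma voom with quality weights), with the groups compared alone, and on TPM in all 3 forms. Of all genes, 6 were called with all 26 libraries by edgeR, 0 by limma voom and 17 with the groups alone. On TPM + 1, TPM + 0.1 and TPM + 1 without Rn7s1 and Rn7s2, 2324, 2292 and 135 of all genes were called. Leaving out 1 library gave 0 to 4; of the libraries outside this comparison, 0 remained called without actuated replicate 1, static replicate 1 or static replicate 2, and 1 without actuated replicate 2, 3 or 4 or low intensity replicate 4. DESeq2 called 1 gene at low intensity and 1 on the static array; TPM called 13 and 2, all higher. In the other 3 comparisons 0 genes were called under every alternative.

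With the replicate block 0 were called at high intensity (Sncb and Cplx1 each at edgeR adjusted p = 0.0734), where 2 of all 14730 genes were called. Correlations between the deviations of same-numbered libraries were -0.23 to 0.19. For actuated against static array, 2 of 3 pairs were over 0.1, and 2 correlated best with their own number. So few pairs cannot tell whether a number marks a shared batch, and the labels do not say. No other count of calls moved under the block.

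The median fold of the 45 genes moved with TPM + 1 and TPM + 0.1 to 0.34 and 0.35 at high intensity, 0.52 and 0.53 at low intensity, 0.56 and 0.61 on the static array, and -0.12 and -0.12 for actuation against high intensity; for actuation it was 0.16 with TPM + 0.1. Without Rn7s1 and Rn7s2 in the TPM (chosen after seeing the data) it was -0.0200, 0.0293 and 0.28 at high intensity, low intensity and on the static array. Leaving out 1 library gave medians of -0.37 to -0.21 at high intensity, -0.27 to -0.17 at low intensity, -0.17 to -0.02 between the intensities, -0.05 to 0.09 on the static array, -0.07 to 0.06 for actuation and 0.18 to 0.38 for the difference of both effects.

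Folds that changed sign with TPM + 1 and TPM + 0.1 were, at low intensity, Nrxn2 (0.44 and 0.44), Ppfia3 (0.28 and 0.29) and Syn1 (0.42 and 0.43); on the static array, Pclo (0.10 and 0.10) and Syt4 (0.16 and 0.16); and for actuation, Syp (0.0490 and 0.0492) and Vamp1 (0.0860 and 0.0891, and 0.0125 without Rn7s1 and Rn7s2). TPM shift all genes with the share of Rn7s1 and Rn7s2 by construction. Without both RNAs, 24 of 45 folds were below 0 at high intensity and 18 at low intensity, against 43 and 38 on counts. Measured from the median of all genes in that TPM fit, 40 and 38 were below it.

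For the other presynaptic genes, the 1 called at high intensity became 0 with all 26 libraries (both tools) and with the groups alone, 6 with DESeq2, 2 with protein-coding genes only, and 4 higher on TPM. At low intensity 0 became 1 with DESeq2, 2 without the low-count filter and 23 on TPM. On the static array 0 became 2 with DESeq2, 6 on TPM and 1 on TPM without Rn7s1 and Rn7s2. Between the intensities 0 became 1 with DESeq2.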
